A study of Mus musculus with 5 samples.

Results

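The genes described here carry out protein import into mitochondria and the folding, cutting and turnover of proteins once they are inside. They were chosen by name from the deposited table: every protein-coding gene whose symbol starts with Timm, Tomm or Chchd, together with the 12 genes Hspa9, Hspd1, Hspe1, Trap1, Pmpca, Pmpcb, Grpel1, Lonp1, Clpp, Clpx, Phb and Phb2. The rule found 40 genes among the 12446 in the table, and all 40 were well enough expressed to be tested. Bulk RNA sequencing had compared adult mouse cardiomyocytes that received 4 reprogramming factors (OSKM-CMs, 3 libraries, replicates 1, 2 and 3) with cardiomyocytes that received a control protein (Control-CMs, 2 libraries, replicates 3 and 5). For OSKM-CMs, 4 vectors made from adeno-associated virus (AAV) were injected together: AAV-cTnT-Oct4-His6 for Oct4, AAV-cTnT-Sox2-Flag for Sox2, AAV-cTnT-Klf4-HA for Klf4 and AAV-cTnT-Myc-V5 for Myc, each factor with a short tag. Control-CMs came from mice given AAV-cTnT-BFP, which encodes blue fluorescent protein, at the summed titre of the 4 factor vectors. All mice were C57BL/6 males, injected into the thoracic cavity at 8 weeks of age, and the age given for the samples is 12 to 14 weeks. The cTnT promoter, that of cardiac troponin T, drives expression in cardiomyocytes, so other cells of the heart were not the intended site of expression in either group.

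Nearly all mitochondrial proteins are encoded in the nucleus and are made in the cytosol. They enter through the TOM complex of the outer membrane. Proteins with an amino-terminal presequence then pass the TIM23 complex of the inner membrane, are pulled into the matrix by the Hspa9 chaperone motor, lose the presequence to the processing peptidase and fold with the help of the chaperonin Hspd1 and its partner Hspe1. Carrier proteins of the inner membrane take another route, through the small TIM chaperones and the TIM22 complex, and small cysteine-rich proteins, many of them CHCHD proteins, are trapped in the intermembrane space by an oxidative relay around Chchd4. Heart muscle is rich in mitochondria, and variants of CHCHD10 in people are known for muscle and motor neuron disease.

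The libraries held 2691796 to 3861805 reads over the listed genes, and the gene with the fewest reads among the 40, with 106 reads over all libraries, had at least 13 in each. Levels are given as scaled RPKM, reads per kilobase of gene, relative to library size, with the sizes adjusted by TMM (trimmed mean of M values). Comparisons of level between genes depend on the gene lengths used, and the annotation behind these lengths is not given. Fold changes are OSKM-CMs over Control-CMs. The log2 fold changes are fitted on log2(scaled RPKM + 1), which understates the change of genes with low levels. A gene is said to have risen or fallen where its Benjamini-Hochberg adjusted p from limma, taken over all 10901 genes tested, was below 0.05. Whether the libraries stem from different mice is not stated in the labels, and the p-values therefore reflect just the variation among these 5 samples, which may be technical. Of 8 cardiomyocyte markers, all were highly expressed in every library, but 7 were lower in OSKM-CMs, and their summed level was 21230 and 23904 in the controls against 10302 to 11436 in OSKM-CMs. Of 7 fibroblast markers, 3 collagen genes rose and the rest did not pass. The summed level of the list was 36.8 to 73.5 in controls and 71.4 to 150.0 in OSKM-CMs, which overlap. Endothelial markers summed to 90.6 to 115 in controls and 36.9 to 76.1 in OSKM-CMs, and 2 of 8 fell. As with the fibroblast list, the sums of the other 2 marker lists overlapped between the groups. Macrophage genes summed to 13.0 to 53.4 in controls and 8.15 to 40.2 in OSKM-CMs. Genes of smooth muscle and pericytes summed to 79.5 to 95.2 and 64.7 to 106, although Cspg4 and Pdgfrb in that list rose. The leukocyte marker Ptprc had 0 reads in OSKM-CMs replicate 2 and 6 to 25 in the other libraries, and no other marker measured was at 0 in any library. The 13 genes of mitochondrial DNA took 21.2% and 24.7% of the control reads and 9.76% to 11.1% of the OSKM reads. The part of these differences in the results for the 40 genes was not tested, and in bulk samples fewer cells of a type and less RNA per cell cannot be told apart.

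The sequences upstream of 4 genes and 1 shared element are shown for reference. Whether a delivered factor acts on any of these genes was not tested. The sequences are RefSeq promoter sequences on GRCm38.p6, read 5′ to 3′ on the strand of the gene, and the 4 promoters are the 250 bases before the start and overlap no annotated exon. Chchd10 had the highest level of the 40 genes and fell about as much on the log2 scale as any of them (-0.98, against -0.97 for Timm17b, whose fold was larger). Capitals in its promoter mark a pair of matches to TGATGNAA, the core of the composite element bound by ATF4 and CHOP, the stress-response factors. Chchd3 and Chchd6 encode related subunits of MICOS, the complex that shapes the inner membrane, and changed in opposite directions. Neither promoter holds any of the 5 motifs searched, so both are in lower case. Tomm20, an import receptor that did not pass the test, is shown as 1 of the 7 genes with CACGTG, since Myc was among the delivered factors. CACGTG, in capitals, is the E-box bound by MYC and its partner MAX. Of those 7 genes, Timm9 rose, Chchd1 fell and the others did not pass, where 15.7% of all genes tested rose and 14.4% fell. The last sequence lies between divergent starts of Hspd1 and Hspe1, within an annotated exon of Hspd1, which has a further start at 55088243 on the other side of the Hspe1 start. Its capitals mark a match to GAANNTTC, the core of the heat shock element bound by Hsf1.
Chchd10, chr10:75932880-75933129, plus strand: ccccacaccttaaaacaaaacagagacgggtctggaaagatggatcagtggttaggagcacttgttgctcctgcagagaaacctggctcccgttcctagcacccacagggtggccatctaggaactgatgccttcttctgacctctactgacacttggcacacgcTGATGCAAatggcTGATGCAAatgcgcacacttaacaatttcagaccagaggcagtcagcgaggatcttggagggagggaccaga
Chchd6, chr6:89595653-89595902, minus strand: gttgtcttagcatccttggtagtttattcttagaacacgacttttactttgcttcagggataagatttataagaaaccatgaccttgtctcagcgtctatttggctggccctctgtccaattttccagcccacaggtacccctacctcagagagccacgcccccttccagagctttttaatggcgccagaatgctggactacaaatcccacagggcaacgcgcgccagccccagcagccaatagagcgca
Chchd3, chr6:33060261-33060510, minus strand: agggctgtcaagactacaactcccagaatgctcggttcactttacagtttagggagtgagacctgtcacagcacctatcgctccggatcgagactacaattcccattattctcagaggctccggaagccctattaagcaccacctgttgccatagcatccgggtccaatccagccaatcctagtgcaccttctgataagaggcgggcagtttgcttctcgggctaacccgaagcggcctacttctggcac
Tomm20, chr8:126945922-126946171, minus strand: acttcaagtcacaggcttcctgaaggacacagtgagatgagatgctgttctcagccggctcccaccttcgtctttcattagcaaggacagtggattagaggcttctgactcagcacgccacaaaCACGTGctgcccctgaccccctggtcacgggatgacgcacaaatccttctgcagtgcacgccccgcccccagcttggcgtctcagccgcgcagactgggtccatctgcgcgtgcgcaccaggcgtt
Hspd1 and Hspe1, chr1:55088053-55088082, plus strand: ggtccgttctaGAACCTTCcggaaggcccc

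Over the 40 genes, the data show a few strong and opposite changes and no common shift. In OSKM-CMs, 8 genes fell (Chchd10, Timm17b, Chchd3, Timm23, Tomm40l, Chchd2, Chchd7 and Chchd1), 4 rose (Chchd6, Chchd4, Timm9 and Timm17a) and 28 did not pass the test. That is 12 of 40 genes, where 30.1% of all genes tested passed, 15.7% of them higher and 14.4% lower, so the share among the 40 is near that of all genes. The median log2 fold change was -0.03 over the 40 genes and 0.02 over all genes tested, with 19 of the 40 above 0 and 21 below. The groups did not overlap for 9 genes that were above the controls in every OSKM library and 12 that were below them, and this held for 57.9% of all genes (29.8% above and 28.1% below). With library totals alone in place of TMM, 19 genes were called higher and 2 lower, but then the median of all genes was 0.36 and 36.5% of them were called higher against 5.96% lower. The authors' deposited table gives 10 of the 40 genes an FDR below 0.05, 3 higher and 7 lower, where it gives this to 31.8% of its genes, 16.4% higher and 15.4% lower. All 10 are among the 12 called here, and the authors' deposited table has Chchd1 at an FDR of 0.0784 and Timm9 at 0.136.

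**Figure D1:**
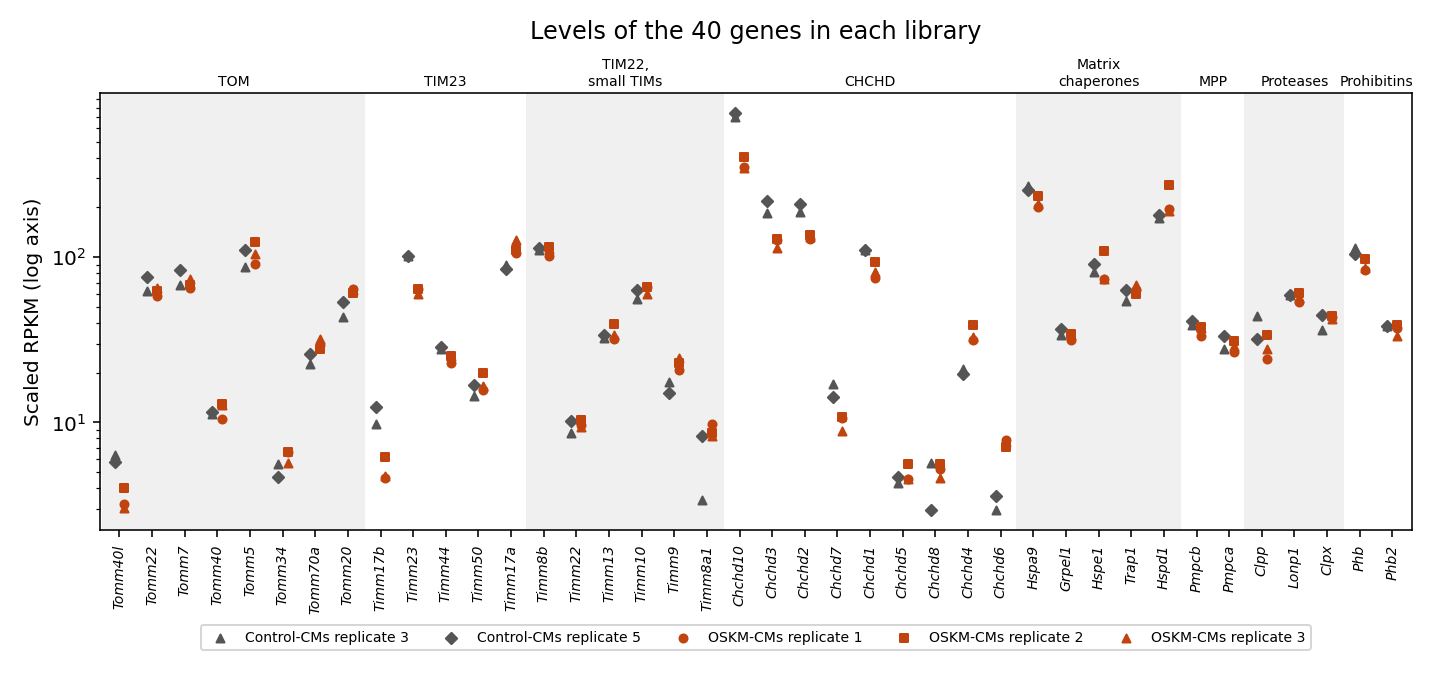
Scaled RPKM of the 40 genes in each of the 5 libraries, on a log axis, with 1 point per library and the genes grouped by role. Chchd10 stands highest in every library, at 703 and 749 in the controls and 346 to 403 in OSKM-CMs, and Chchd6 is among the lowest in the controls, at 2.94 and 3.61.

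Levels among the 40 genes covered a wide range. In controls the 5 highest were Chchd10, Hspa9, Chchd3, Chchd2 and Hspd1, which together held 50.8% of the summed level of the 40. The same 5 genes were the highest in OSKM-CMs, in the order Chchd10, Hspd1, Hspa9, Chchd2 and Chchd3, and held 41.8%. The summed level was 2981 and 3173 in the controls and 2393, 2741 and 2458 in the OSKM libraries, so every OSKM library lay below both controls. This separation rested on Chchd10: without it the sums were 2278 and 2424 in the controls and 2039.9, 2338 and 2112 in OSKM-CMs, which overlap.

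The TOM complex forms the entry gate, and most genes named Tomm did not pass the test. Of these 8, which include the cytosolic Tomm34, 0 rose, 1 fell and 7 did not pass. Their median log2 fold change was 0.08. For comparison, 15.7% of all genes tested rose and 14.4% fell. Tomm40l (ENSMUSG00000005674.3), a paralogue of the channel protein, was at 6.36 and 5.74 in the controls and at 3.21, 4.04 and 3.03 in OSKM-CMs. All 3 OSKM libraries were below both controls, and Tomm40l fell 1.77-fold (log2 fold change -0.68, SE 0.17, adjusted p = 0.0200). Tomm40 itself (ENSMUSG00000002984.10), the main channel, was at 11.3 and 11.5 in the controls and at 10.4, 13.0 and 12.7 in OSKM-CMs. These values overlap, and the 95% interval of the log2 fold change ran from -0.27 to 0.40. Tomm20 (ENSMUSG00000058779.7), the receptor that first binds presequences, was at 43.7 and 53.2 in the controls and at 63.9, 61.0 and 63.2 in OSKM-CMs. The OSKM values were all above the controls, but its log2 fold change of 0.37 (95% interval 0.08 to 0.66) had an adjusted p of 0.0570. It passed with voom weights (adjusted p = 0.0489) and where only genes of at least 5 scaled RPKM were tested (adjusted p = 0.0462). Tomm70a, the receptor for carrier proteins, and Tomm34, a cytosolic co-chaperone, also lay above the controls in every OSKM library, at log2 fold changes of 0.28 and 0.25, and did not pass (adjusted p = 0.138 and 0.255). Tomm5, Tomm7 and Tomm22, small subunits and the central receptor of the complex, overlapped between the groups, with log2 fold changes from -0.15 to 0.10. The call of Tomm40l was lost when 1 of 4 libraries was left out, at adjusted p = 0.0909 and 0.0552 without Control-CMs replicates 3 and 5 and 0.0724 and 0.0664 without OSKM-CMs replicates 1 and 3.

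The TIM23 complex carries presequence proteins across the inner membrane, and its channel genes moved apart. Of 5 genes, 1 rose, 2 fell and 2 did not pass, where 15.7% of all genes tested rose and 14.4% fell. Timm23 (ENSMUSG00000013701.6), which gives the complex its name, was at 101 and 102 in the controls and at 64.3, 64.0 and 60.0 in OSKM-CMs. The 3 OSKM values were close together and far below both controls. Timm23 fell 1.62-fold, from 102 ± 0.684 (SD, n = 2) to 62.8 ± 2.41 (SD, n = 3), with a log2 fold change of -0.69 (SE 0.11, limma adjusted p = 0.00297). Timm17a and Timm17b encode alternative forms of the partner subunit. Timm17b (ENSMUSG00000031158.5) was at 9.83 and 12.3 in the controls and at 4.58, 6.16 and 4.73 in OSKM-CMs. Each OSKM library was below both controls, and Timm17b fell 2.15-fold (log2 fold change -0.97, SE 0.18, adjusted p = 0.00559). Timm17a (ENSMUSG00000062580.3) was at 90.1 and 85.0 in the controls and at 106, 111 and 127 in OSKM-CMs. It lay above the controls in all 3 OSKM libraries and rose 1.31-fold (log2 fold change 0.38, SE 0.12, adjusted p = 0.0465). Timm50, the receptor subunit, and Timm44, which tethers the Hspa9 motor, had log2 fold changes of 0.14 and -0.20 and did not pass (adjusted p = 0.498 and 0.247). The rise of Timm17a did not pass without any 1 of the 5 libraries, at adjusted p of 0.104 and 0.175 without Control-CMs replicates 3 and 5 and 0.0678, 0.0576 and 0.142 without OSKM-CMs replicates 1, 2 and 3. It also missed the threshold with median-of-ratios size factors, at 0.0534.

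Among the 6 genes of the TIM22 route, 1 rose, 0 fell and 5 did not pass, with a median log2 fold change of 0.09. The shares of all genes tested were 15.7% higher and 14.4% lower. Timm9 and Timm10 form the ring that escorts carrier proteins through the intermembrane space. Timm9 (ENSMUSG00000021079.8) was at 17.5 and 15.1 in the controls and at 20.9, 22.8 and 24.5 in OSKM-CMs. The groups did not overlap, and Timm9 rose 1.40-fold (log2 fold change 0.46, SE 0.13, adjusted p = 0.0358). Timm10 (ENSMUSG00000027076.4) was at 55.5 and 63.2 in the controls and at 66.1, 66.4 and 59.9 in OSKM-CMs. One OSKM library, replicate 3, lay between the controls, and the 95% interval of the log2 fold change was -0.17 to 0.39. Timm8a1 (ENSMUSG00000048007.4), the mouse counterpart of the gene of deafness-dystonia syndrome, was at 3.40 and 8.23 in the controls and at 9.85, 8.58 and 8.28 in OSKM-CMs. The controls differed more from each other than the OSKM libraries did, and the log2 fold change of 0.63 (95% interval -0.07 to 1.34) did not pass (adjusted p = 0.154). It rested on the low value of Control-CMs replicate 3: without that library it was 0.098 (adjusted p = 0.735), and without Control-CMs replicate 5 it was 1.18 (adjusted p = 0.00827). Timm8b (ENSMUSG00000039016.4) was at 110.2 and 113 in the controls and at 101, 115 and 112 in OSKM-CMs, with overlap and a log2 fold change of -0.03. Timm13, a small TIM, and Timm22, the carrier channel, were at log2 fold changes of 0.07 and 0.05. The call of Timm9 was lost without any 1 of the libraries, at adjusted p of 0.0565 and 0.175 without Control-CMs replicates 3 and 5 and 0.0567, 0.0702 and 0.109 without OSKM-CMs replicates 1, 2 and 3, and with voom (0.0973).

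**Figure D2:**
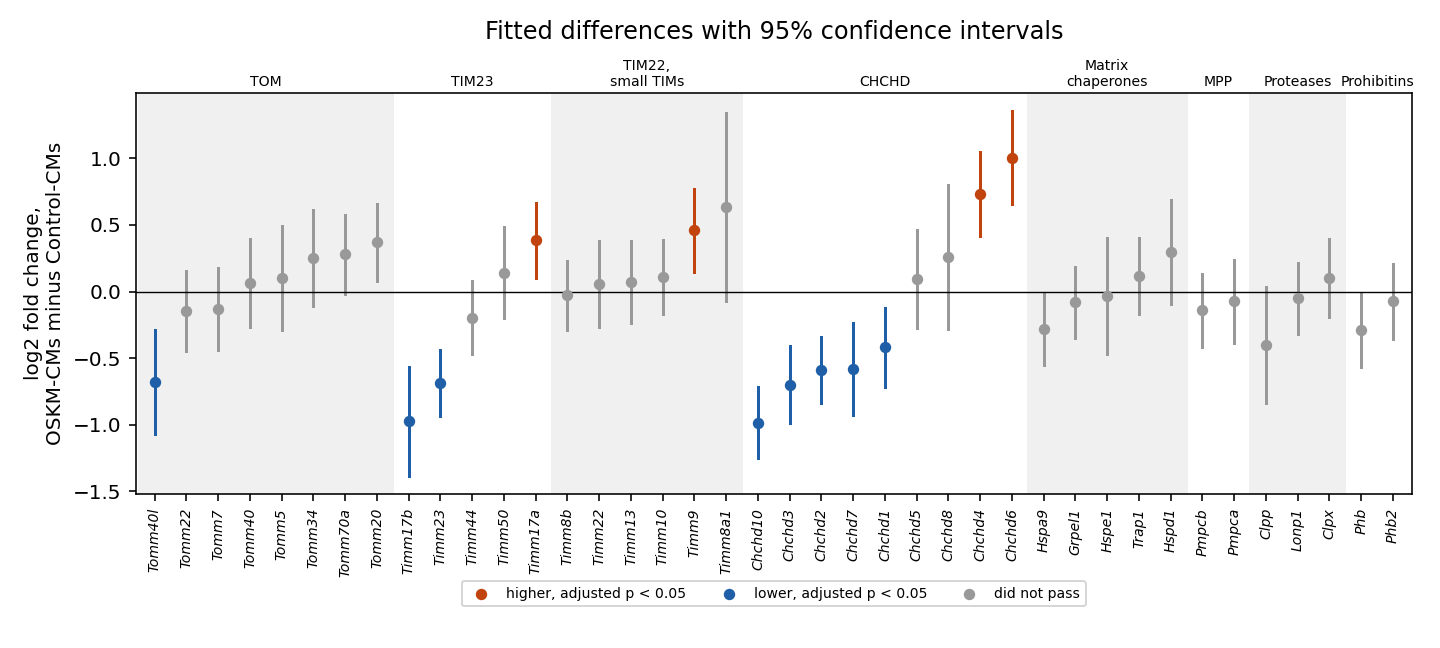
Log2 fold change of each of the 40 genes (OSKM-CMs minus Control-CMs) with its 95% confidence interval from limma, grouped by role and coloured by whether the adjusted p was below 0.05. Called genes stand in the TOM, TIM23, TIM22 and CHCHD groups, from -0.98 (Chchd10) to 1.004 (Chchd6). None of the 12 chaperone, peptidase, protease and prohibitin genes passed, against 30.1% of all genes tested.

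The CHCHD proteins share a fold held by pairs of cysteines and have diverse roles. Of their 9 genes, 2 rose, 5 fell and 2 did not pass, and their median log2 fold change was -0.42. Among all genes tested, 15.7% were higher and 14.4% lower, with a median of 0.02. Chchd10 (ENSMUSG00000049422.6) and Chchd2 are paralogues whose proteins work together in the intermembrane space. Chchd10 was at 703 and 749 in the controls and at 353, 403 and 346 in OSKM-CMs. Even the highest OSKM library was far below the lower control. Chchd10 fell 1.98-fold, from 726 ± 32.2 (SD, n = 2) to 367 ± 31.1 (SD, n = 3), with a log2 fold change of -0.98 (SE 0.11, limma adjusted p = 0.000982). Chchd2 (ENSMUSG00000070493.3) was at 188 and 211 in the controls and at 129, 135 and 132 in OSKM-CMs. It was lower in every OSKM library and fell 1.51-fold (log2 fold change -0.59, SE 0.11, adjusted p = 0.00587).

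The MICOS subunits Chchd3 and Chchd6 went opposite ways. Chchd3 (ENSMUSG00000053768.6) was at 184 and 218 in the controls and at 127, 129 and 113 in OSKM-CMs. No OSKM library reached the lower control, and Chchd3 fell 1.63-fold (log2 fold change -0.70, SE 0.12, adjusted p = 0.00532). Chchd6 (ENSMUSG00000030086.9) had 23 and 28 reads in the controls and 61, 56 and 59 in OSKM-CMs, which gave levels of 2.94 and 3.61 against 7.87, 7.13 and 7.64. It was about equally high in the 3 OSKM libraries and rose 2.31-fold, from 3.27 ± 0.475 (SD, n = 2) to 7.54 ± 0.380 (SD, n = 3), with a log2 fold change of 1.004 (SE 0.15, limma adjusted p = 0.00269). Even so, Chchd3 remained far more abundant than Chchd6 in every library.

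Chchd4 (ENSMUSG00000034203.7), the oxidoreductase that traps proteins with paired cysteines in the intermembrane space, was at 21.0 and 19.6 in the controls and at 31.4, 39.0 and 33.1 in OSKM-CMs. All OSKM values were above the controls, and Chchd4 rose 1.70-fold (log2 fold change 0.73, SE 0.13, adjusted p = 0.00602). Chchd7 (ENSMUSG00000042198.6), a small twin-cysteine protein, was at 17.0 and 14.2 in the controls and at 10.6, 10.8 and 8.94 in OSKM-CMs. It fell 1.54-fold with no overlap (log2 fold change -0.58, SE 0.15, adjusted p = 0.0228). Chchd1 (ENSMUSG00000063787.3), a protein of the mitochondrial ribosome, was at 111 and 111 in the controls and at 74.5, 93.9 and 81.5 in OSKM-CMs. It fell 1.33-fold with no overlap (log2 fold change -0.42, SE 0.13, adjusted p = 0.0429). Chchd5 and Chchd8 (now Coa4, an assembly factor of cytochrome oxidase) had under 31 reads in every library and overlapped between the groups, at log2 fold changes of 0.09 and 0.26. The call of Chchd7 was lost without Control-CMs replicate 3 (adjusted p = 0.121) and without OSKM-CMs replicates 1 and 3 (0.0572 and 0.0714). That of Chchd1 was lost without Control-CMs replicates 3 and 5 (0.132 and 0.136) and without OSKM-CMs replicates 1 and 3 (0.129 and 0.118). Chchd10, Chchd4, Chchd6 and Timm17b were called under all 13 alternative settings.

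None of the 5 matrix chaperone genes passed the test with limma, nor did the 7 genes of the processing peptidase, the matrix proteases and the prohibitins. Of all genes tested, 30.1% passed. At an unadjusted limma p below 0.05 there were 2 of these 12, Hspa9 and Phb, and the share of all genes at that cut was not computed. With voom none of the 12 passed (smallest adjusted p 0.0643, for Hspa9). With library totals alone, Hspd1, Trap1, Clpx and Lonp1 were called higher, as were 36.5% of all genes. Hspa9 (ENSMUSG00000024359.8), the mitochondrial Hsp70 that drives import, was at 269 and 255 in the controls and at 200.3, 236 and 210.1 in OSKM-CMs. The OSKM libraries were all below the controls, but the log2 fold change of -0.28 (95% interval -0.55 to -0.02) had an adjusted p of 0.101. Without OSKM-CMs replicate 2 it was -0.35 and passed (adjusted p = 0.0433). Grpel1 (ENSMUSG00000029198.3), its nucleotide exchange factor, was at 33.8 and 36.7 in the controls and at 31.7, 34.5 and 33.6 in OSKM-CMs. The groups overlapped, with a log2 fold change of -0.08 (95% interval -0.35 to 0.19).

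The chaperonin genes varied most within OSKM-CMs. Hspd1 (ENSMUSG00000025980.8), the Hsp60 chamber in which proteins fold, was at 171 and 180.3 in the controls and at 197, 272 and 189 in OSKM-CMs. Replicate 2 was well above the other two OSKM libraries, all 3 were above the controls, and the log2 fold change of 0.30 (95% interval -0.09 to 0.69) did not pass (adjusted p = 0.220). Without OSKM-CMs replicate 2 it was 0.13 (adjusted p = 0.384). Hspe1 (ENSMUSG00000073676.4), the Hsp10 lid, was at 81.6 and 90.3 in the controls and at 74.0, 109 and 73.4 in OSKM-CMs. Here replicate 2 alone was above the controls and the other two OSKM libraries were below them, at a log2 fold change of -0.03 (95% interval -0.47 to 0.40). Relative to the mean of the other OSKM libraries, replicate 2 had 1.48 times as much Hspe1 and 1.41 times as much Hspd1, the highest ratios among the 40 genes. Replicate 2 was the highest OSKM library for 29 of the 40 genes, against 35.6% of all genes tested. In that library the summed level of cardiomyocyte markers was also the highest of the 3 (11436 against 10302 and 10408). Myh6 (2536 against 1664 and 1636), Tnni3, Myl2 and Pln were highest there, Tnnt2 was lowest, and Ryr2, Ttn and Actn2 lay between. The fibroblast sum was the lowest of the 3 (71.4 against 146 and 150.0). So were the endothelial, macrophage, and smooth muscle and pericyte sums (36.9, 8.15 and 64.7). The part of these values in the chaperonin levels was not tested. Trap1 (ENSMUSG00000005981.9), the mitochondrial Hsp90, was at 54.3 and 63.1 in the controls and at 63.6, 59.5 and 67.8 in OSKM-CMs. It overlapped between the groups, with a log2 fold change of 0.12 (95% interval -0.17 to 0.40).

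Neither subunit of the processing peptidase passed. Pmpca (ENSMUSG00000026926.8), which recognises the presequence, was at 27.8 and 33.2 in the controls and at 26.8, 31.0 and 28.8 in OSKM-CMs, with a log2 fold change of -0.07 (95% interval -0.38 to 0.23). Pmpcb (ENSMUSG00000029017.7), the catalytic subunit, was at 39.0 and 41.0 in the controls and at 33.5, 38.0 and 37.1 in OSKM-CMs. Pmpcb lay just below the controls in each OSKM library, with a log2 fold change of -0.14 (95% interval -0.41 to 0.13), and Pmpca overlapped.

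The 3 matrix protease genes did not pass either. Lonp1 (ENSMUSG00000041168.8), which degrades misfolded matrix proteins, was at 58.8 and 59.4 in the controls and at 53.3, 61.1 and 56.9 in OSKM-CMs. These values overlapped, with a log2 fold change of -0.05 (95% interval -0.32 to 0.21). Clpx (ENSMUSG00000015357.4), the unfolding subunit of the other matrix protease, was at 36.2 and 44.4 in the controls and at 43.3, 44.0 and 42.1 in OSKM-CMs. The OSKM values fell within the range of the controls, with a log2 fold change of 0.10 (95% interval -0.19 to 0.40). Clpp (ENSMUSG00000002660.7), its proteolytic subunit, was at 44.2 and 32.2 in the controls and at 24.1, 33.6 and 28.0 in OSKM-CMs. Only OSKM-CMs replicate 2 was above the lower control, and the log2 fold change of -0.40 (95% interval -0.84 to 0.03) had an adjusted p of 0.144.

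The prohibitins form a ring in the inner membrane that holds membrane proteases and lipids in place. Here 0 of 2 passed, against 30.1% of all genes tested. Phb (ENSMUSG00000038845.5) was at 113 and 105 in the controls and at 83.9, 97.6 and 86.0 in OSKM-CMs. It was lower in every OSKM library, at a log2 fold change of -0.29 (95% interval -0.56 to -0.01, adjusted p = 0.104), and passed at -0.36 without OSKM-CMs replicate 2 (adjusted p = 0.0482). Phb2 (ENSMUSG00000004264.10) was at 38.2 and 38.6 in the controls and at 37.3, 39.0 and 33.2 in OSKM-CMs. It overlapped between the groups, with a log2 fold change of -0.07 (95% interval -0.35 to 0.21). Hspd1 and Hspe1 have 5 and 6 named pseudogenes, and Hspa9 and Chchd2 have 1 each. How reads shared with such copies were counted is not given in the sources used here, so the levels of these 4 genes are uncertain to that extent.

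The ratio of 2 genes within a library does not depend on how libraries are scaled to each other, and 11 pairs of paralogues or partners were compared this way. For 9 of the 11 pairs the ratios of the groups did not overlap, 6 higher and 3 lower in OSKM-CMs. Over all 57507450 pairs of tested genes with reads in every library, 57.5% did not overlap. With 2 libraries against 3, the smallest p of an exact two-sided permutation test is 0.2 (0.244 after Benjamini-Hochberg adjustment over the 11), so no pair can pass 0.05. The Chchd3 to Chchd6 ratio was 62.6 and 60.4 in the controls and 16.2, 18.1 and 14.8 in OSKM-CMs. Its mean was 3.76-fold lower in OSKM-CMs, the widest separation of the 11. The Timm17a to Timm17b ratio was 9.17 and 6.89 in the controls and 23.2, 18.0 and 26.9 in OSKM-CMs, 2.83-fold higher. Tomm40 stood to Tomm40l at 1.78 and 2.00 in the controls and at 3.25, 3.21 and 4.20 in OSKM-CMs, 1.88-fold higher.

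The other pairs differed by smaller folds. Hspd1 stood to Hspe1 at 2.10 and 2.00 in the controls and at 2.65, 2.50 and 2.58 in OSKM-CMs, 1.26-fold higher. In this ratio OSKM-CMs replicate 2 was the lowest of the OSKM libraries, while it was the highest in the level of either gene. Chchd2 stood to Chchd10 at 0.268 and 0.282 in the controls and at 0.366, 0.336 and 0.381 in OSKM-CMs, 1.31-fold higher. The mean Timm8a1 to Timm8b and Timm9 to Timm10 ratios were 1.58-fold and 1.29-fold higher in OSKM-CMs. For Timm9 to Timm10, the higher control (0.315) nearly met the lowest OSKM library (0.316), and for Timm8a1 to Timm8b the closest values were 0.0728 and 0.0736. The mean Hspa9 to Grpel1 and Phb to Phb2 ratios were 1.15-fold and 1.16-fold lower. Pmpca to Pmpcb and Clpp to Clpx overlapped between the groups (exact permutation p = 0.6 and 0.4).

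**Figure D3:**
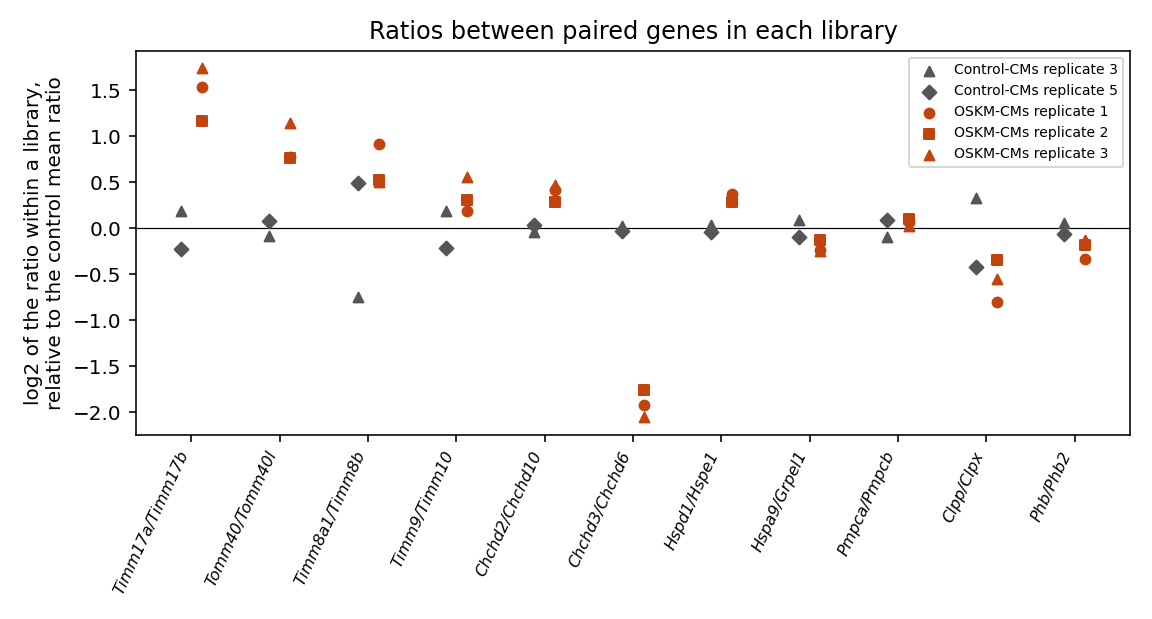
Ratio between paired genes within each of the 5 libraries, plotted as log2 relative to the mean control ratio, with 1 point per library. Chchd3 to Chchd6 is far below the controls in all 3 OSKM libraries and Timm17a to Timm17b far above, while Pmpca to Pmpcb and Clpp to Clpx overlap.

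A further list held 41 genes of mitochondrial import, processing and quality control that the naming rule does not cover, such as the motor co-chaperones, the sorting complex of the outer membrane, MICOS, the inner membrane peptidases and the membrane-bound proteases. Of these, 38 were tested: 0 rose, 12 fell and 26 did not pass, and the median log2 fold change was -0.20. Over all genes tested, 15.7% were higher and 14.4% lower, with a median of 0.02. At an unadjusted p below 0.05, 1 was higher, Htra2, a protease of the intermembrane space, at 0.44 (limma adjusted p = 0.0894), and voom called none higher. The share of all genes at that cut was not computed. With library totals alone 2 were lower and 6 higher, where 5.96% of all genes were lower and 36.5% higher. The 6 with the largest falls were Dnajc19, Immp2l, Aifm1, Immp1l, Romo1 and Samm50. Dnajc19, a motor co-chaperone known for dilated cardiomyopathy with ataxia, was at 16.3 and 18.2 in the controls and at 7.98, 9.80 and 9.40 in OSKM-CMs. It was lower in every OSKM library and fell 1.90-fold (log2 fold change -0.86, adjusted p = 0.00398). Immp2l and Immp1l, the subunits of the inner membrane peptidase, fell by 0.86 and 0.65 on the log2 scale (adjusted p = 0.00633 and 0.0185). Aifm1, whose protein anchors Chchd4 at the inner membrane, was at 21.4 and 20.3 in the controls and at 11.6, 14.1 and 12.9 in OSKM-CMs. It fell 1.62-fold (log2 fold change -0.66, adjusted p = 0.00901), while Chchd4 had risen. Romo1, an inner membrane protein, and Samm50, the channel that inserts barrel proteins into the outer membrane, fell by 0.61 and 0.56 (adjusted p = 0.0133 and 0.00786). Immt and Apoo, further MICOS subunits named here after their values were seen, fell by 0.54 each (adjusted p = 0.00727 and 0.0115), in the direction of Chchd3 and not of Chchd6. The MICOS gene Apool and the associated Dnajc11 did not pass, at log2 fold changes of -0.32 and 0.04 (adjusted p = 0.150 and 0.850). Calls were lost for Immp1l without Control-CMs replicate 5 (adjusted p = 0.101) or OSKM-CMs replicates 1 or 3 (0.0622 and 0.0532), for Romo1 without Control-CMs replicate 5 (0.0826) and for Apoo without Control-CMs replicate 3 (0.0595). The number that fell was 7 without Control-CMs replicate 5 and 7 without OSKM-CMs replicate 1.

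Genes that regulate mitochondrial and heat stress responses were examined next to their targets. Of 7 tested, 2 rose, 2 fell and 3 did not pass, where 15.7% of all genes tested rose and 14.4% fell. Atf4, the main transcription factor of the integrated stress response, was at 36.1 and 35.6 in the controls and at 58.9, 63.3 and 52.9 in OSKM-CMs. It was higher in every OSKM library and rose 1.63-fold (log2 fold change 0.68, adjusted p = 0.00524). Atf5, a regulator of the mitochondrial unfolded protein response, rose from 5.12 ± 0.379 (SD, n = 2) to 7.66 ± 0.319 (SD, n = 3), or by 0.50 on the log2 scale (limma adjusted p = 0.0303). Hsf1, the heat shock factor, was at 14.6 and 15.3 in the controls and at 8.11, 9.78 and 11.0 in OSKM-CMs. It was lower in every OSKM library and fell 1.55-fold (adjusted p = 0.0246). Cebpb, a bZIP factor, was at 9.62 and 8.85 in the controls and at 3.24, 3.84 and 2.17 in OSKM-CMs, a 3.00-fold fall with no overlap (adjusted p = 0.00283). The 3 that did not pass were Atf3, Ddit3 and Ubl5. Atf3, a stress-induced bZIP factor, was at 85.7 and 116 in the controls and at 41.2, 52.8 and 18.0 in OSKM-CMs. It was below the controls in every OSKM library, with the largest fitted difference of the list and a wide interval (log2 fold change -1.52, 95% interval -2.71 to -0.34, adjusted p = 0.0630). Ddit3, the gene of CHOP, overlapped between the groups (log2 fold change 0.79, adjusted p = 0.122), and Ubl5, a ubiquitin-like protein, was below the controls in every OSKM library (-0.33, adjusted p = 0.111). Hspd1, Hspe1, Lonp1, Clpp and Hspa9 are known as outputs of the mitochondrial unfolded protein response. With TMM scaling none of the 12 exactly named genes passed, these among them. With library totals alone Hspd1, Trap1, Clpx and Lonp1 were called higher, as were 36.5% of all genes. Whether this response was active was not tested. Atf5 missed the threshold without any 1 of the 5, at adjusted p of 0.117 and 0.0635 without Control-CMs replicates 3 and 5 and 0.0988, 0.0608 and 0.0699 without OSKM-CMs replicates 1, 2 and 3. Hsf1 missed it without Control-CMs replicates 3 and 5 (0.0739 and 0.102) and without OSKM-CMs replicate 1 (0.0706).

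Promoter sequences were found for 35 of the 40 genes, 1 of them through an older symbol, and the 250 bases before each start were searched on both strands for 5 motifs. CACGTG was present in 7 of the 35 genes (20.0%), namely Chchd1, Hspd1, Lonp1, Phb, Timm8a1, Timm9 and Tomm20, against 6.86% of 27025 genes. These 27025 are all genes with a promoter sequence, whether or not they were read in these libraries. Shares among the genes tested here were not computed, so the 40 genes are set against an unlike group. Of these 7, Timm9 rose, Chchd1 fell and the others did not pass the test, where 15.7% of all genes tested rose and 14.4% fell. The ETS element CCGGAAGT was in 5 genes (14.3% against 3.23%), Chchd5, Phb2, Pmpcb, Timm23 and Tomm70a, of which Timm23 fell. TGATGNAA was in 2 genes (5.71% against 3.91%), once in Chchd8 and at both places printed above in Chchd10. GAANNTTC was in 3 genes (8.57% against 7.73%), Hspd1, Hspe1 and Timm9, and the match of Hspd1 and Hspe1 is the same element, since the starts that flank it (55087932 and 55088148 on chromosome 1) are 215 bases apart on opposite strands. The NRF1 element, a core of 10 bases, was in 0 of 35 genes against 0.877% of all genes. The motifs do not overlap each other in the sequences printed, and such a match is a description of letters, not a site shown to be bound. Annotated exons of Hspd1 and Hspe1 share 112 bases on opposite strands, and without a known strand setting reads from these bases cannot be told apart.

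The scaling between libraries moves all genes together, and so it bears on which genes are called. Under library totals alone, 6 of the 12 calls held: Chchd10 and Timm17b fell, and Chchd6, Chchd4, Timm9 and Timm17a rose. Timm23 and Chchd3 were then at -0.27 and -0.28 (adjusted p = 0.0848 and 0.0718), and Chchd2 at -0.17 (adjusted p = 0.208), still far below the all-gene median of 0.36. The 19 genes called higher on that scale included Hspd1 (0.72), Trap1 (0.53), Clpx (0.51), Lonp1 (0.36), Tomm20 (0.78) and Tomm70a (0.68). With totals that leave out the 13 genes of mitochondrial DNA, chosen after seeing the data, 7 genes were higher and 5 lower, the median of the 40 was 0.17 and that of all genes 0.18, where 23.8% of all genes were called higher and 9.43% lower.

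**Figure D4:**
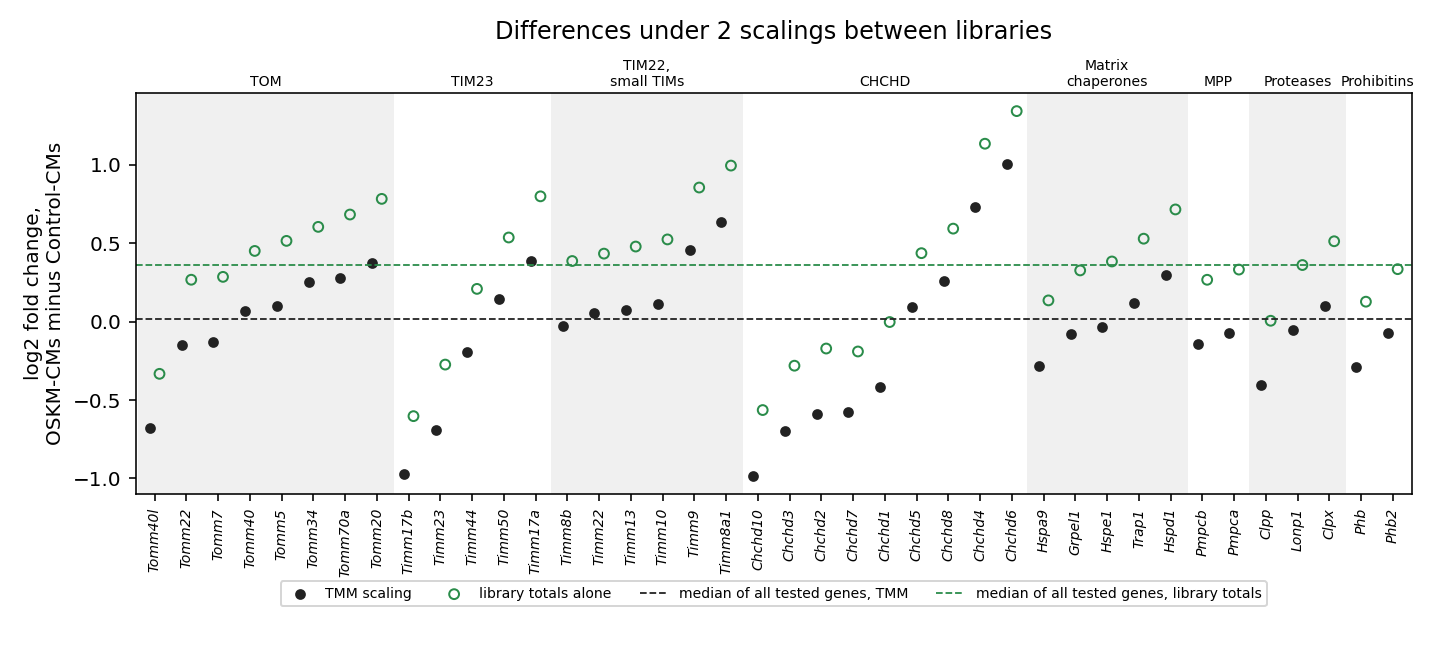
Log2 fold change of each of the 40 genes with TMM scaling (filled points) and with library totals alone (open points), and the median of all tested genes on each scale (dashed lines). Every gene lies higher with library totals, as does the median of all genes, which goes from 0.02 to 0.36.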

How the data were processed

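RNA from adult mouse cardiomyocytes was sequenced in 5 libraries. Per the submitters' processing notes, the build was mm9 and the tools were STAR 2.5.3, HTSeq, Trimmomatic, FastQC and CASAVA 1.8.2. The annotation, the strand setting and the handling of shared reads are not given in the sources used here. The authors deposited 1 table of 12446 genes with an RPKM value per library. No header names that unit, which was inferred from the values. Other columns deposited by the authors hold, for each gene, a log2 fold change, a log2 average abundance, a likelihood-ratio score and a p-value with its FDR. Every gene in the table reached 1 CPM in 2 or more libraries, and genes below that were not analysed here.

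Whole reads were recovered from the RPKM for 100% of genes, within 0.0001 reads. RPKM were scaled with TMM factors (30% and 5% trims), and genes with a mean of at least 1 were kept. The log2 values, with 1 added to each scaled RPKM, went into limma 3.58.1 in R 4.3.3, with trend and robust empirical Bayes, 2-sided, with Benjamini-Hochberg adjustment at 0.05. The fit and the recovery were tested on simulated data. The simulated fit used no TMM factors, so the scaling between libraries was not tested there. The 40 genes, the lists, pairs and motifs were chosen with earlier results of these data known. Values in every library are given for the 12 exactly named genes, for both genes of a pair and for the extremes of each role, and for other genes that passed. Of the further lists, up to 6 rises and 6 falls are named. A count test was planned for raw counts only, and the files held RPKM. Counting intervals and floors were not needed.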

Additional observations from a re-analysis of the deposited data

How the results depend on the processing

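Of the single-gene values over 13 alternative settings, 590 kept their direction and side of the threshold. A further 78 kept their direction but no longer passed, and 21 kept it and passed only under the alternative. In 36 the sign changed, all but 1 of them in genes that had not passed. With library totals alone, Timm8b and Lonp1 changed sign and were also called higher (limma adjusted p = 0.0306 and 0.0464). Genes of the 40 called higher and lower were 19 and 2 with library totals alone and 7 and 5 with totals without mitochondrial DNA genes (chosen after seeing the data), with medians of 0.39 and 0.17. Both settings rescale whole libraries, and so shift all genes. For the further import genes, these settings gave 2 and 7 lower and 6 and 2 higher. Leaving out 1 library gave 2 to 3 higher and 5 to 10 lower, a median of -0.089 to 0.045, and 7 to 13 lower and 0 to 0 higher among the further genes. These fits have fewer samples, and where 1 control remained it was assumed to vary like the OSKM libraries. The other settings (median-of-ratios factors, pseudocounts of 0.1 and 5, no filter, a minimum of 5, voom) kept 11 or 12 of the 12 calls.

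With library totals alone, values that changed sign were Hspa9 0.14, Phb 0.13, Clpp 0.0057, Timm44 0.21, Pmpcb 0.27, Tomm22 0.27, Tomm7 0.29, Grpel1 0.33, Pmpca 0.33, Phb2 0.33, Lonp1 0.36, Timm8b 0.39, Hspe1 0.38 and Dnajc15 0.00099, the last of which had fallen. With totals without mitochondrial DNA genes they were Timm44 0.00049, Pmpcb 0.056, Tomm22 0.054, Tomm7 0.072, Grpel1 0.12, Pmpca 0.12, Phb2 0.12, Lonp1 0.15, Timm8b 0.17 and Hspe1 0.17. Over the fits that leave out 1 library, the sign also changed for Chchd8 (-0.12 to 0.64), Tomm7 (-0.28 to 0.025), Clpx (-0.040 to 0.25), Pmpca (-0.20 to 0.051), Tomm5 (-0.078 to 0.28), Timm13 (-0.022 to 0.14), Timm22 (-0.058 to 0.17), Timm8b (-0.073 to 0.030) and Hspe1 (-0.22 to 0.063). For these the cause was not tested.

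No paired analysis was possible because just 1 replicate number occurs in both groups. A quasi-likelihood count test on the recovered reads was listed as an alternative and was not run. Groups of 2 and 3 libraries limit what can be called, and the largest standard errors among the 40 genes were those of Timm8a1 (0.30) and Chchd8 (0.23), which have few reads.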
